A study of Homo sapiens with 6 samples.

Results

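Transcripts of the SKP2 ubiquitin ligase and of the CIP/KIP inhibitors of cyclin-dependent kinases were followed in Huh7 cells, an established line from a human hepatocellular carcinoma. The 9 genes were SKP2, SKP1, CUL1, RBX1, CKS1B, CKS2, CDKN1A, CDKN1B and CDKN1C, taken by gene symbol from the array's annotation. They were read by 20 of the 49293 tested probe sets, and all 9 genes were measured among 18132 genes. A further probe set (1) carried a second symbol beside a member's and was not counted. The study offers 1 comparison, in which 3 arrays were labelled control and 3 were labelled KCa3.1 silenced, with a genotype given as knockdown. KCa3.1 is a calcium-activated potassium channel encoded by KCNN4. All cells were Huh7 in the logarithmic phase of growth, and the labels do not say how the channel was silenced or whether replicates were separate cultures. A p-value here therefore sets a difference against the scatter of 3 arrays a group, part of which could be technical.

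The SKP2 ligase belongs to the SCF class of enzymes, which attach ubiquitin to proteins and so send them to the proteasome. CUL1 is its scaffold, RBX1 its RING subunit that recruits the ubiquitin-conjugating enzyme, SKP1 the adaptor, and SKP2 the F-box protein that holds the substrate, with the small protein CKS1 (from CKS1B) as an accessory. Its best known substrate is p27, encoded by CDKN1B, which with p21 (CDKN1A) and p57 (CDKN1C) inhibits the kinases that drive entry into S phase. In hepatocellular carcinoma low p27 protein is often found together with high SKP2. The arrays measured RNA, not protein, so the degradation that the ligase carries out was not observed.

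The target gene was read first. KCNN4 had gene means of -0.006, 0.126 and -0.073 on the control arrays and of -0.055, 0.089 and 0.011 on the arrays labelled silenced, in log2 units. The ranges overlapped, and the 95% interval of the difference ran from -0.16 to 0.16 (limma adjusted p = 1, two-sided exact permutation p = 1, with n = 3 in each group and 0.1 as the smallest possible p). KCNN4 RNA was thus not measurably lower by these probe sets, and every direction that follows is between libraries as labelled. All 3 KCNN4 probe sets have names ending in _x_at, a kind whose probes can match other, similar transcripts. What such transcripts add to the KCNN4 values was not tested. Values are log2 RMA values that had been centred on each probe set's own baseline, so a value near 0 is no level, and genes cannot be compared in abundance. For the same reason the hepatic identity of the cells could not be checked, since no level of a marker can be read. By gene means, 7.14% of all genes were higher in the arrays labelled silenced and 6.19% lower. Of 6 measured hepatocyte markers 4 were higher, 0 were lower (0 at an unadjusted p under 0.05) and 2 did not pass, with the largest rises in APOA1 (1.14), AFP (0.70) and SERPINA1 (0.40). Of 10 markers of blood, endothelial and stromal cells none passed (0 by limma, 1 lower and 0 higher at an unadjusted p under 0.05), with changes from -0.21 to 0.19, and the part of such markers in the results was not tested.

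The upstream sequences of 3 members are shown because SKP2 and CKS1B fell together while CKS2, the close relative of CKS1B, did not pass the test. Each line gives the 250 bases before the annotated start, 5′ to 3′ on the gene's strand, from RefSeq on build GRCh38.p14. Capitals mark the CCAAT box (CCAAT or, on the other strand, ATTGG) and the cell cycle genes homology region, or CHR (TTTGAA or TTCAAA), an element known from promoters of G2/M genes.
SKP2, chr5:36151861-36152110, plus strand: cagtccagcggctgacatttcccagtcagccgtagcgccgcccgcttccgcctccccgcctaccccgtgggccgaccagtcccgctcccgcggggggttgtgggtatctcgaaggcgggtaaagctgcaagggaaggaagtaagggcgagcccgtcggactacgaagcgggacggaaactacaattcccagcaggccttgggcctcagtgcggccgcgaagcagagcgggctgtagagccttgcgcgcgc
CKS1B, chr1:154974431-154974680, plus strand: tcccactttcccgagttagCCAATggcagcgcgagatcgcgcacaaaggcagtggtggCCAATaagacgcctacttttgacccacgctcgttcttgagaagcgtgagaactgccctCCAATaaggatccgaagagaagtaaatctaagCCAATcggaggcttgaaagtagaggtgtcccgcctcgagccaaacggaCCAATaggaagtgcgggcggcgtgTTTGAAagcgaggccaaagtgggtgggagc
CKS2, chr9:89310945-89311194, plus strand: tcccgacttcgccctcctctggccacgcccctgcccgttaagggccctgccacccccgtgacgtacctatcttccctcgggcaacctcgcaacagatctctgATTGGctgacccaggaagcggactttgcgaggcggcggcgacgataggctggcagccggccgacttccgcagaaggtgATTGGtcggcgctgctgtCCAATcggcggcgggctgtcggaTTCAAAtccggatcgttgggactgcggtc

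CKS1B and CKS2 were alike in these letters. CKS1B held 1 CHR word at positions -30 to -25 from the start and 5 CCAAT boxes, and CKS2 held 1 CHR word at -29 to -24, on the other strand, and 3 CCAAT boxes. SKP2 held neither word (0 and 0). A CHR word was found in 13.4% and a CCAAT box in 32% of all 34943 RefSeq windows of 250 bases. Words of the E2F site (TTTCCCGC, TTTCGCGC, TTTGCCGC or TTTGGCGC, both strands) occurred in 2.77% of windows and in none of the members' (0). The GC box (GGGCGG, both strands), which can share bases with an E2F word, was in 42.5% of windows. Matches numbered 1 in SKP2, 1 in CKS1B, 0 in CKS2 and 5 in RBX1. Members that did not pass the test held it too, with 2 in SKP1, 4 in CDKN1A, 1 in CDKN1B and up to 4 in a window of CUL1. CCAAT boxes also stood in CDKN1B (2) and, at most 1 a window, in CUL1, while RBX1, SKP1 and CDKN1A held none (0). Windows were found for 8 of the 9 members, all but CDKN1C. A match of letters is a description and shows no binding. A missing word does not show that a site is absent, since only exact words in these 250 bases were searched.

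**Figure D1:**
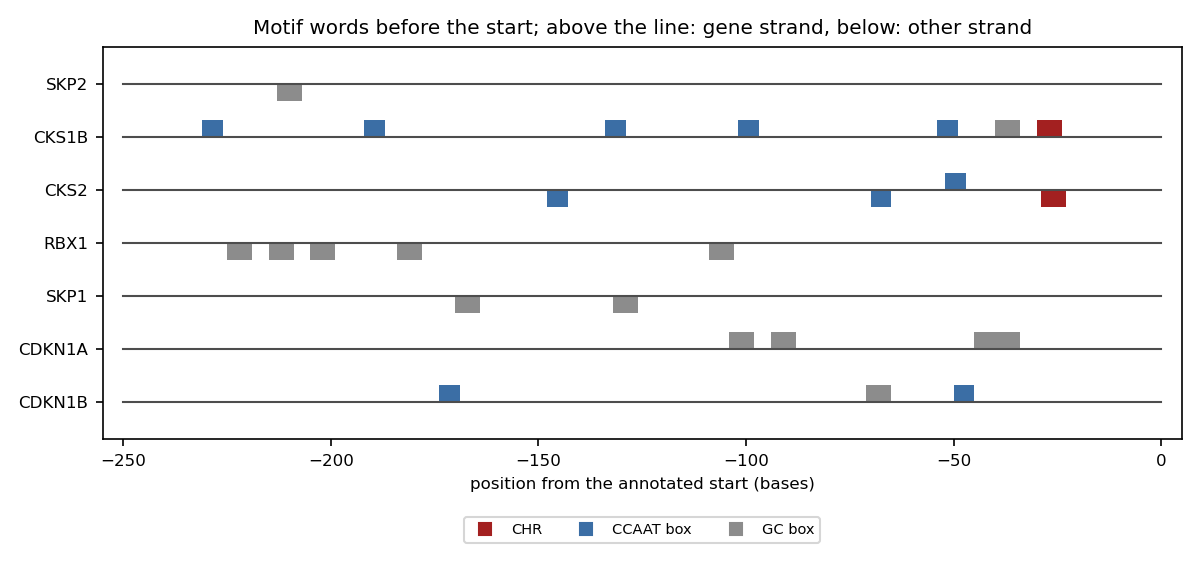
Motif words in the 250 bases before the annotated start of 7 members, by position from the start in bases, with words of the gene strand above each line and words of the other strand below. CUL1, which has several annotated starts, and CDKN1C are not drawn. CKS1B and CKS2 each show a CHR word (red) near the start, at -30 to -25 and -29 to -24, and CCAAT boxes (blue) upstream of it.

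In the arrays labelled silenced, transcripts of the substrate-binding side of the ligase, SKP2 and CKS1B, were lower, RBX1 was lower in 1 of its 2 probe sets, and CDKN1C in 2 of 3. SKP1, CUL1, CKS2, CDKN1A and CDKN1B did not pass the test in any probe set. Of the 20 probe sets 8 were lower, 12 did not pass and none was higher (0 by limma at an adjusted p under 0.05, and 9 lower and 0 higher at an unadjusted p under 0.05). Over the whole array 10.7% of probe sets changed, 4.85% of them lower and 5.82% higher as shares of all tested. The groups did not overlap in 11 of the 20, against 26.7% of all probe sets. The median change was -0.143 over the 20 and -0.003 over all. By gene means 4 of 9 members were lower, where 6.19% of all genes were. The groups did not overlap in 5 of 9, against 29.3% of all genes. The median change was -0.123 against -0.006 for all genes. Because the members were chosen with earlier results of these data known, these shares describe them and test no excess over the array.

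**Figure D2:**
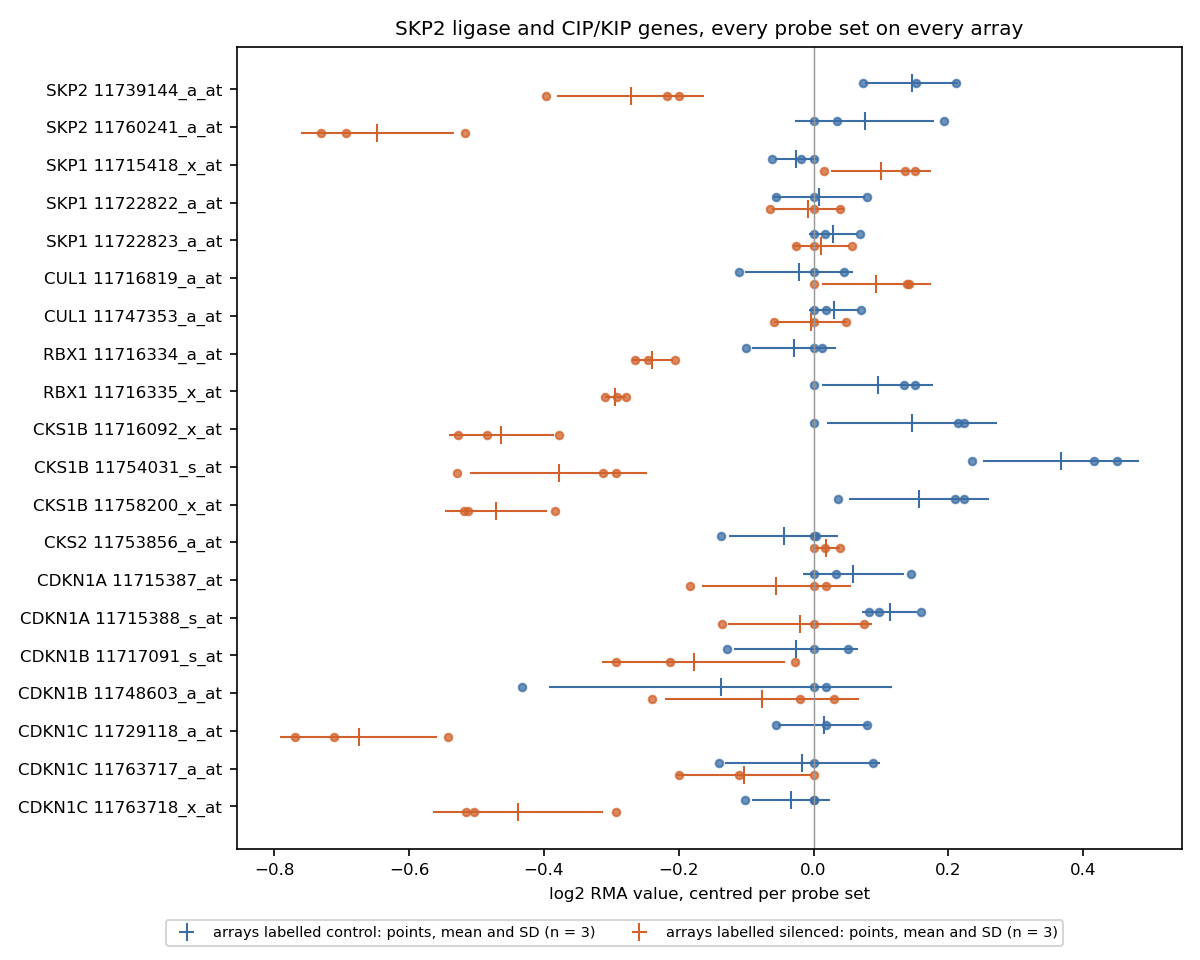
Log2 RMA values, centred per probe set (horizontal axis), of the 20 probe sets on each of the 6 arrays, with points for arrays and bars for the mean and SD of 3. The silenced-labelled points lie to the left of all control points for SKP2, RBX1 and CKS1B, for 2 of the 3 probe sets of CDKN1C and, by a narrow gap, for CDKN1A 11715388_s_at.

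SKP2, the F-box subunit that gives the ligase its substrates, was lower in both of its probe sets. Probe set 11760241_a_at read 0, 0.035 and 0.194 on the control arrays and -0.731, -0.694 and -0.517 on those labelled silenced. All 3 silenced-labelled values lay below the lowest control value, by more than either group's spread. The difference was -0.72 on the log2 scale (SE 0.084, 95% interval -0.92 to -0.53, limma adjusted p = 0.001), or 1.65-fold lower. Probe set 11739144_a_at read 0.152, 0.074 and 0.212 against -0.2, -0.397 and -0.217. Here too the groups stood apart, with a smaller difference of -0.42 (SE 0.077, 95% interval -0.59 to -0.24, limma adjusted p = 0.01). Both are of a kind whose probes match transcripts of 1 gene only. Their intervals overlap, and the difference between them was not tested.

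CKS1B encodes the accessory protein through which SKP2 recognises phosphorylated p27. By gene means CKS1B had the largest fall of the 9 members (-0.66). That order was not kept without probe sets at exactly 0 on 2 or more arrays, where CDKN1C was -0.69. The CKS1B probe set 11754031_s_at read 0.235, 0.451 and 0.416 on the control arrays and -0.293, -0.529 and -0.312 on those labelled silenced. The gap between the groups was wider than the range within either. The difference was -0.75 (SE 0.09, limma adjusted p = 0.0013), a 1.68-fold lower value. The other CKS1B probe sets gave -0.61 and -0.63 with limma adjusted p-values of 0.0022 and 0.0014. Among all genes, 0.8% had a larger fall than CKS1B and 1.11% a larger fall than SKP2. All 3 CKS1B probe sets are of kinds whose probes can match other, similar transcripts (names ending in _s_at or _x_at), and what such transcripts add was not tested.

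CKS2, whose protein is closely related to that of CKS1B, was read by 1 probe set. Its values were -0.137, 0.004 and 0 on the control arrays and 0, 0.039 and 0.017 on those labelled silenced, so the groups overlapped. The mean was 0.06 higher (95% interval -0.09 to 0.21, limma adjusted p = 0.66), and a fall of the size seen in CKS1B lies outside that interval. The contrast between the pair was read within each array. CKS1B minus CKS2 was 0.228, 0.295 and 0.28 on the control arrays and -0.43, -0.564 and -0.374 on the silenced-labelled arrays. The groups did not overlap, and the mean moved by -0.72, from 0.267 ± 0.035 to -0.456 ± 0.098 (SD, n = 3 each). The two-sided exact permutation p was 0.1, the smallest that 3 against 3 arrays allow, and 0.2 when adjusted over the 2 pairs compared. SKP2 minus CKS1B was -0.112 ± 0.119 and -0.022 ± 0.013 (SD, n = 3 each), with overlapping groups and an exact permutation p of 0.3, also 0.3 when adjusted. A difference in response between SKP2 and CKS1B was thus not detectable with these arrays.

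The core of the ligase was split. RBX1, the RING subunit, which serves many cullin ligases besides this one, read 0, 0.134 and 0.151 on the control arrays and -0.31, -0.292 and -0.278 on the silenced-labelled arrays in probe set 11716335_x_at. The silenced-labelled values were tightly grouped (SD 0.016) below all controls. The difference was -0.39 (SE 0.066, limma adjusted p = 0.0072). Probes of this _x_at kind can match other, similar transcripts, and what such transcripts add was not tested. The other RBX1 probe set, 11716334_a_at, read -0.1, 0 and 0.013 against -0.245, -0.206 and -0.265. The groups again did not overlap, but the difference of -0.21 did not pass (95% interval -0.36 to -0.06, limma adjusted p = 0.078), and it passed with array weights (adjusted p = 0.038) and after quantile normalisation (adjusted p = 0.047). The gene mean of RBX1 fell by 0.30 (limma adjusted p = 0.0085), which became -0.21 with an adjusted p = 0.052 on its _a_at probe set alone.

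SKP1, the adaptor between CUL1 and the F-box protein, had 3 probe sets, with differences of 0.13, -0.02 and -0.02. The first, 11715418_x_at, read 0, -0.018 and -0.061 on the control arrays and 0.016, 0.15 and 0.136 on the silenced-labelled arrays. The groups did not overlap there, yet the test was not passed (limma adjusted p = 0.31), and the other SKP1 probe sets overlapped. CUL1, the scaffold, gave 0.11 and -0.03 with overlapping groups and limma adjusted p-values of 0.42 and 0.82. The 95% intervals of the 5 SKP1 and CUL1 probe sets lay between -0.18 and 0.28, so falls as large as those of SKP2 lay outside them.

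**Figure D3:**
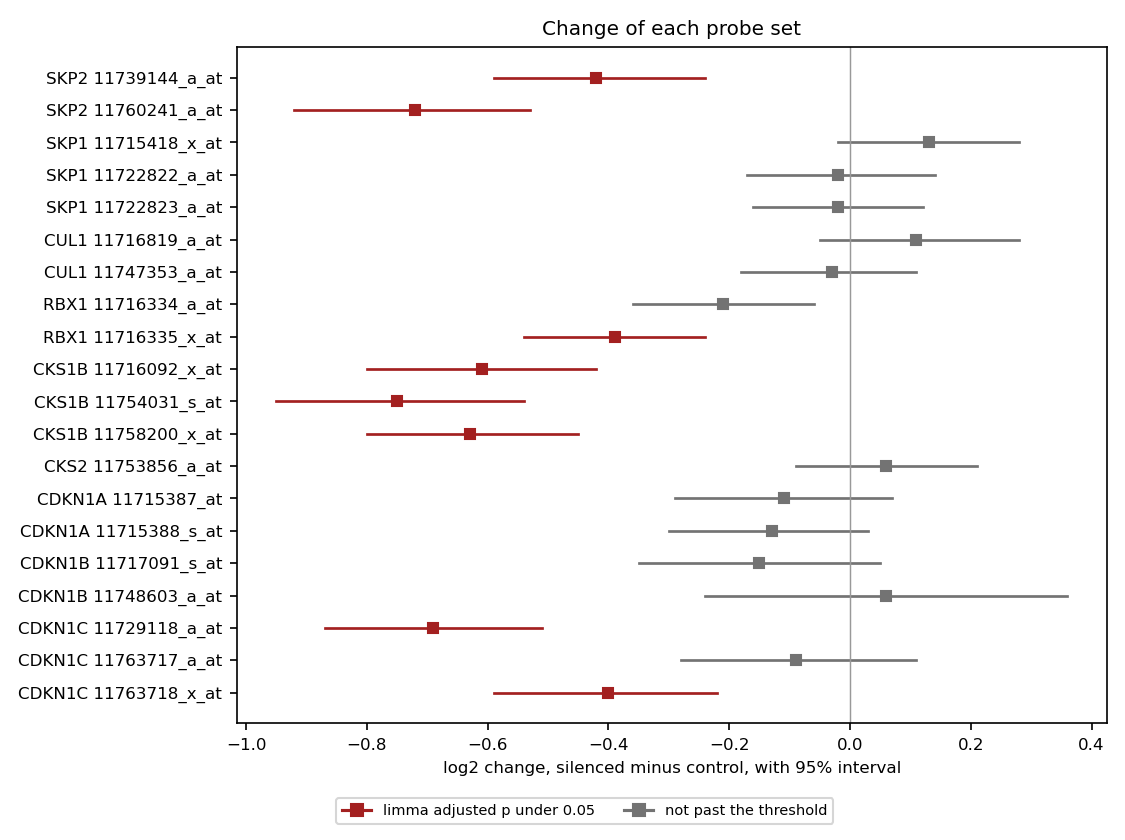
Log2 change, silenced minus control, of each of the 20 probe sets with its 95% interval from limma (horizontal axis). The 8 probe sets past the adjusted threshold (red) all lie below 0, from -0.39 for RBX1 to -0.75 for CKS1B. The intervals of SKP1, CUL1, CKS2, CDKN1A and CDKN1B all include 0.

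CDKN1C, which encodes p57, an inhibitor transcribed from an imprinted locus, was the lower one of the 3 CIP/KIP genes. Probe set 11729118_a_at read -0.055, 0.08 and 0.019 on the control arrays and -0.712, -0.769 and -0.543 on the silenced-labelled arrays. The groups were far apart compared with their SDs of 0.068 and 0.117. The difference was -0.69 (SE 0.079, 95% interval -0.87 to -0.51, limma adjusted p = 0.00097). Probe set 11763718_x_at read 0, 0 and -0.101 against -0.516, -0.504 and -0.293, a difference of -0.40 (limma adjusted p = 0.014). That second call did not hold when control 2 (adjusted p = 0.057), silenced 1 (adjusted p = 0.054) or silenced 2 (adjusted p = 0.061) was dropped, with differences between -0.39 and -0.36. As a probe set ending in _x_at, 11763718_x_at can also match other, similar transcripts, and what these add was not tested. The third probe set, 11763717_a_at, read 0, 0.088 and -0.14 against 0, -0.111 and -0.199. The groups overlapped and the difference of -0.09 did not pass (95% interval -0.28 to 0.11, limma adjusted p = 0.63). The 3 probe sets of CDKN1C thus disagreed in size, and only the interval of the third includes 0. Their gene mean fell by 0.39 (SE 0.06, limma adjusted p = 0.0028). The value was -0.69 on the most variable probe set (limma adjusted p = 0.0008) and without probe sets at exactly 0 on 2 or more arrays (limma adjusted p = 0.00032). Both settings leave 11729118_a_at alone, so they repeat its value and add no separate evidence. The most variable probe set is picked by its SD over all 6 arrays, which includes the difference between groups.

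CDKN1A, whose product p21 is induced by p53, read 0, 0.144 and 0.033 on the control arrays and 0.019, -0.183 and 0 on the silenced-labelled arrays in probe set 11715387_at. Silenced replicate 2 was the lowest, and the groups overlapped. The difference was -0.11 (95% interval -0.29 to 0.07, limma adjusted p = 0.47). In 11715388_s_at the values were 0.16, 0.082 and 0.097 against 0, -0.136 and 0.075, just short of overlap, with a difference of -0.13 (95% interval -0.30 to 0.03, limma adjusted p = 0.34).

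CDKN1B, the gene of p27, had the widest spread of the members. Probe set 11748603_a_at read -0.433, 0.018 and 0 on the control arrays and 0.031, -0.239 and -0.02 on the silenced-labelled arrays. Control replicate 1 lay lowest of all 6 arrays. The difference was 0.06 (95% interval -0.24 to 0.36, limma adjusted p = 0.85) and turned to -0.09 without that array. Probe set 11717091_s_at read -0.128, 0.051 and 0 against -0.293, -0.213 and -0.027, a difference of -0.15 (95% interval -0.35 to 0.05, limma adjusted p = 0.37). No rise in CDKN1B RNA was detectable beside the lower SKP2 and CKS1B RNA.

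**Figure D4:**
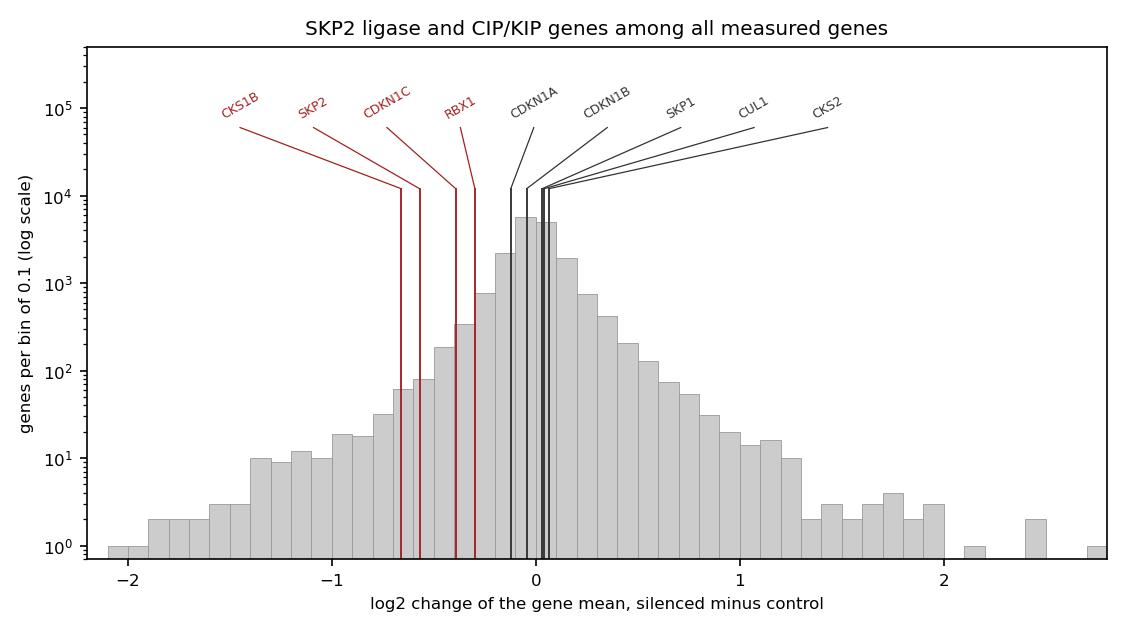
Number of genes per bin of 0.1 (log scale) by the log2 change of the gene mean, silenced minus control, over 18132 genes, with the 9 members marked. CKS1B (-0.66), SKP2 (-0.57), CDKN1C (-0.39) and RBX1 (-0.30), in red, passed the test and lie in the lower flank. The other members lie between -0.12 and 0.06.

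Genes around these members were counted by gene means, where 13.3% of all genes changed in either direction. Of 19 measured regulators of cullin ligases (the NEDD8 pathway, which activates cullins, the COP9 signalosome, which removes NEDD8, the CAND exchange factors and E2 enzymes) 2 were higher, 1 was lower and 16 did not pass (median change 0.037). COPS8, a signalosome subunit, rose by 0.35. Dropping silenced 3 ended that call (0.34, adjusted p = 0.051), as did leaving out probe sets ending in _s_at or _x_at (0.18, adjusted p = 0.18). NAE1, a subunit of the NEDD8-activating enzyme, rose by 0.34, but dropping control 2, control 3 or any silenced array ended the call (0.26 to 0.37). CAND2 fell by 0.34, which dropping control 2, control 3 or silenced 2 brought short of the threshold (-0.31 to -0.30). Of 14 other F-box genes FBXW7, the receptor of cyclin E and MYC, was the 1 higher, by 0.25, and none was lower (0 by limma, 1 lower at an unadjusted p under 0.05; median -0.023). Dropping control 1, control 2 or any silenced array ended the FBXW7 call (0.20 to 0.26).

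Other ligases act on SKP2 or on the inhibitors, among them the anaphase-promoting complex, which degrades SKP2 in G1, and the KPC ligase, which degrades cytoplasmic p27. Among these 14 genes 2 passed as higher and 1 as lower, and 11 did not pass (median 0.042). UBAC1, the KPC2 subunit, read -0.232, -0.039 and -0.002 on the control arrays and 0.312, 0.279 and 0.308 on the silenced-labelled arrays, without overlap. It rose by 0.39 (SE 0.069, limma adjusted p = 0.0059). Of the anaphase-promoting complex, CDC27 rose by 0.36 and ANAPC10 fell by 0.28. The CDC27 call ended on dropping control 2, control 3, silenced 1 or silenced 2 (0.30 to 0.34), and the ANAPC10 call on dropping control 3 (-0.26) or silenced 2 (-0.24).

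Of 10 other proteins reported as SKP2 substrates, 3 transcripts passed as lower and 1 as higher, and 6 did not pass (median -0.05). Cyclin D1 (CCND1), which drives CDK4 and CDK6, read 0.342, 0.48 and 0.485 on the control arrays and -0.025, -0.053 and 0.005 on the silenced-labelled arrays. The groups were widely separated, and CCND1 fell by 0.46 (SE 0.06, limma adjusted p = 0.0011). FOXO1, a transcription factor that can induce CDKN1B, fell by 0.38 (limma adjusted p = 0.0058), with -0.09 (adjusted p = 0.68) on its probe sets ending in _at alone and -0.77 (adjusted p = 0.00027) on its most variable probe set. E2F1, an activator of S phase genes, fell by 0.32 (limma adjusted p = 0.029), which fell short once control 1, control 3 or any silenced array was dropped (-0.33 to -0.24). MYC, the 1 higher gene, rose by 0.28 (limma adjusted p = 0.026) and was named after its value was seen. Its call ended on dropping control 1, control 2, silenced 2 or silenced 3 (0.23 to 0.29).

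Genes of cyclins and their kinases came next, listed together with subunits of the CDK-activating complex. Among these 14 genes 2 passed as lower and 1 as higher, and 11 did not pass (median -0.101). Beside CCND1, CDK7, the kinase of the CDK-activating complex, fell by 0.28 and its assembly factor MNAT1 rose by 0.27. The CDK7 call ended on dropping control 2, control 3 or silenced 3 (-0.27 to -0.24), and the MNAT1 call on dropping control 1, control 3, silenced 1 or silenced 3 (0.24 to 0.26). CDK2, the kinase that p27 mainly restrains, was looked up after the results were seen and had a change of 0.02 (95% interval -0.11 to 0.15). Of the 4 measured genes listed with the INK4 inhibitors none passed (0 by limma, 1 lower at an unadjusted p under 0.05), with a median of -0.103. They were CDKN2A, CDKN2B, CDKN2D and CDKN3, of which CDKN3 is not an INK4 gene.

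Of 20 transcription regulators known for SKP2, CKS or CIP/KIP genes, 4 passed as lower and 2 as higher, and 14 did not pass (median -0.068). The lower genes were FOXO1, E2F1, E2F3 (-0.21) and MYBL2 (-0.24), and the higher ones FOXO3 and MYC. Dropping control 3 or any silenced array ended the calls of E2F1, E2F3 and MYBL2, and dropping control 2 those of E2F3 and MYBL2. Without silenced 3, which also ended the MYC call, only FOXO1 and FOXO3 of these 6 still passed. FOXO3, another activator of CDKN1B, read -0.329, -0.221 and -0.279 on the control arrays and 0.107, 0.026 and 0.116 on the silenced-labelled arrays. It rose by 0.36 (SE 0.057, limma adjusted p = 0.0033), opposite in sign to FOXO1. FOXM1, an activator of SKP2 and CKS1B, was looked up after the results were seen: its change was -0.19 (95% interval -0.33 to -0.04) and did not pass (limma adjusted p = 0.094). Among 12 proliferation markers 1 passed as lower and 1 as higher, and 10 did not pass (median -0.062). AURKB, a mitotic kinase, fell by 0.27, which fell short once control 2, control 3, silenced 2 or silenced 3 was dropped (-0.28 to -0.23). BIRC5, the gene of survivin, rose by 0.20, but dropping any 1 of the 6 arrays ended the call (0.17 to 0.22), the sign turned with probe sets ending in _at alone (-0.03, adjusted p = 0.94), and its most variable probe set gave 0.35 (adjusted p = 0.017). The part of proliferation in the members' changes was not tested.

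**Figure D5:**
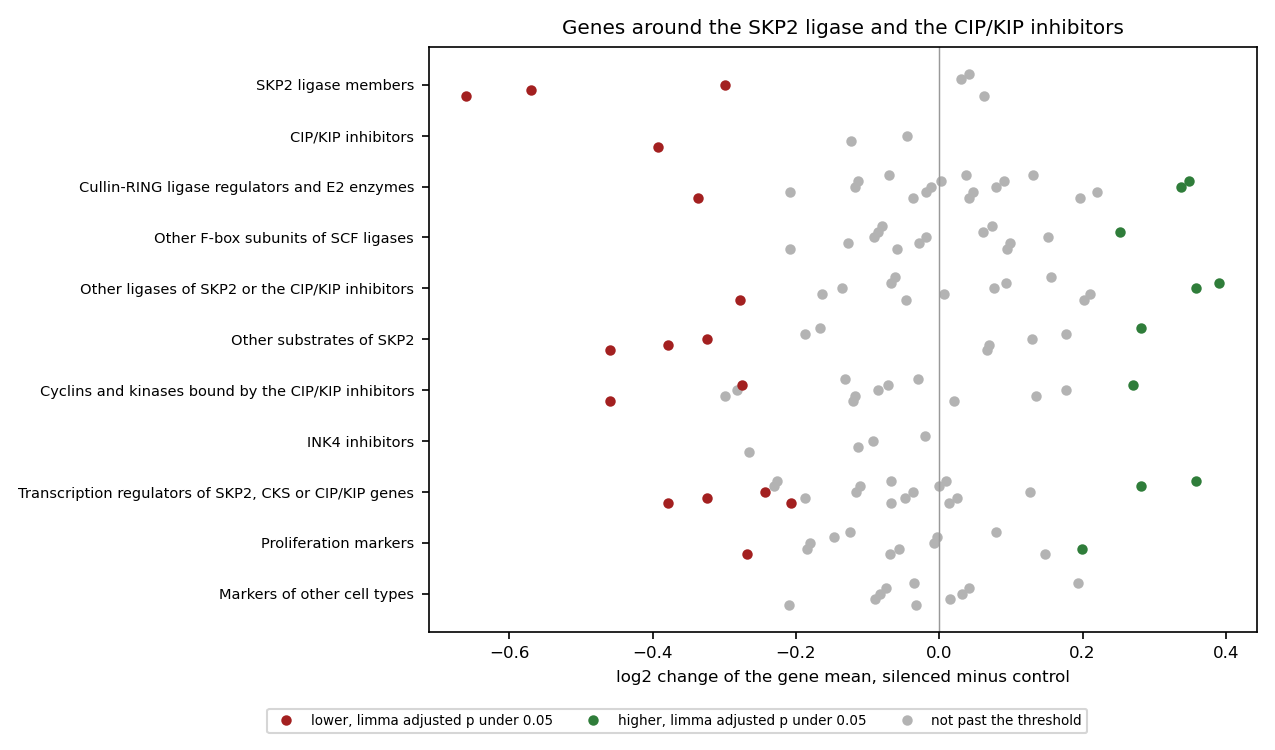
Log2 change of the gene mean, silenced minus control (horizontal axis), of each measured gene in the lists around the ligase, 1 point a gene, with a gene drawn in every list that holds it. The hepatocyte markers, with changes from 0.06 to 1.14, are not drawn. The farthest points to the left are CKS1B (-0.66) and SKP2 (-0.57). The proliferation markers hold 1 lower and 1 higher gene of 12, and the markers of other cell types hold no gene past the threshold.

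The genes nearest in pattern to SKP2 over the 6 arrays were CSRP1, IDS, GPR19, CCDC80 and PTPRR. Their values, each centred on its own mean, differed from those of SKP2 by a root mean square of 0.033 (CSRP1) to 0.042 (PTPRR) log2 units, where the median of all other genes was 0.304. For CKS1B they were CITED2, TPRG1L, IGDCC4, POLD4 and IL10RB, with 0.024 (CITED2) to 0.032 (IL10RB) against a median of 0.35. POLD4 encodes a small subunit of DNA polymerase delta and CITED2 a transcriptional coregulator. Their falls were close to those of the members, from -0.51 (PTPRR) to -0.62 (CCDC80) for the first 5 and from -0.62 (TPRG1L) to -0.70 (IL10RB) for the others. The measure includes the difference between the 2 groups, which all of these genes share. These genes were picked as the nearest of all, so values far below the median follow from the choice.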

How the data were processed

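RNA of 6 Huh7 samples was labelled with biotin for 1-colour Affymetrix arrays, per the labels' protocols. The authors made the values with RMA according to the submitters' processing notes, where its version is not stated. Deposited values are log2 and lie near 0; the log base is that of RMA's usual output. Each probe set had been centred on a baseline that the sources used here do not give, so differences between groups are kept and levels are lost. An exact 0 stood on at least 1 array in 80.6% of probe sets and on 2 or more arrays, as a tie, in 25.2%. Ties within a group can narrow its spread. The number of arrays, 3 a group, limits the precision.

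Of 49395 probe sets 102 control probe sets were left out. All others were fitted with limma 3.58.1 in R 4.3.3 (lmFit, eBayes, group as the only term) and adjusted over all 49293 by the Benjamini-Hochberg method, with calls at an adjusted p under 0.05. Gene means over probe sets with 1 symbol (44988 of them; 1832 had several symbols and 2473 none here) were fitted likewise over 18132 genes. No symbol changed through its Entrez identifier (0). The script was tested on simulated data. Arrays of 1 label correlated with r between 0.406 and 0.67 and those of unlike labels with r between -0.273 and 0.068, and no 2 arrays were identical (0 pairs). Pairs of members were compared by exact permutation over arrays. Members and lists were chosen with earlier results of these data known. The text names all members, KCNN4, up to 3 largest called changes of each list and the 5 genes nearest in pattern to SKP2 and to CKS1B by rule. MYC, E2F3, MYBL2, FOXM1 and CDK2 were named after their values were seen. Alternatives left out arrays or kinds of probe sets, added the replicate number, or changed normalisation, weights, variance moderation or the gene summary.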

Additional observations from a re-analysis of the deposited data

How the results depend on the processing

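SKP2, CKS1B and the probe set 11729118_a_at of CDKN1C stayed lower and past the threshold under every alternative that kept them. Among these alternatives, the filter for probe sets of larger range and the most variable probe set both choose by spread over arrays of both groups. That spread includes the difference between groups, so neither is a separate check of these falls. The 8 lower member probe sets became 7 to 8 with an array left out, 3 without probe sets ending in _s_at or _x_at (an alternative chosen after seeing the data) and 0 with those ending in _at alone, which keep 1 of the 20 (CDKN1A). The 4 lower member genes stayed 4 with any array left out and became 2 and 0 under these filters, which leave no probe set of CKS1B. With an array left out, changed probe sets numbered 3252 to 4592 (main 5261), higher ones 1765 to 2314 and lower ones 1417 to 2278, and lower genes 736 to 1167. The filters gave 3342 and 736 changed probe sets, 1891 and 425 higher, 1451 and 311 lower, and the stricter one 565 changed genes, 330 higher and 235 lower; fewer probe sets were tested there. CKS1B against CKS2 was -0.81 when each gene was read by its most variable probe set.

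Values near 0 changed sign. KCNN4 ran from -0.04 to 0.05 with an array left out, was 0.00 after quantile normalisation and 0.02 with the most variable probe set; its probe sets 11719227_x_at, 11763785_x_at and 11763806_x_at ran from -0.04 to 0.08, -0.07 to 0.03 and -0.04 to 0.06. SKP1 was -0.02 without _s_at and _x_at probe sets, and its 11722822_a_at and 11722823_a_at were 0.01 and 0.00 with array weights and ran from -0.05 to 0.02 and -0.04 to 0.00 with an array left out. CDKN1B ran from -0.14 to 0.01 with an array left out and was 0.06 under both the _s_at and _x_at filter and the most variable probe set; its 11748603_a_at ran from -0.09 to 0.14. BIRC5 was -0.03 with probe sets ending in _at alone.

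With the replicate number as a replicate block, 4362 probe sets changed, and 8 member probe sets and 4 member genes were lower. The calls of FBXW7, MNAT1, BIRC5, E2F3 and MYBL2 ended with the block. With a filter that keeps the probe sets of larger range, these and the calls of ANAPC10, CDK7, AURKB and MYC ended; when the most variable probe set stood for each gene, those of ANAPC10, CDK7, AURKB, MYC, MNAT1, E2F1, E2F3, MYBL2 and NAE1 did. CDKN1C was -0.55 with the range filter. Same-numbered arrays deviated from their group means with r from -0.058 to -0.029, and those of unlike number with r from -0.306 to 0.354. No array correlated best with its own number (0 of 6), so same-numbered arrays were taken to share only a number. The highest r of control 1 was with silenced 2 (0.311), of control 2 with silenced 3 (0.354) and of control 3 with silenced 1 (0.305). The labels give no such pairing and none was fitted, so whether these pairs shared a culture or day was not tested. Signal over background is unknown in centred values, so a filter on dim probe sets was replaced by one on range.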
